A study of Mus musculus with 7 samples.

Results

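Skeletal muscle identity is set by a small network of transcription factors. The MyoD family (Myod1, Myf5, Myf6, which is also called MRF4, and Myog) are basic helix-loop-helix proteins that pair with E proteins and bind the E-box. They commit cells to the muscle lineage and drive myoblasts to differentiate. Pax7 marks satellite cells, the stem cells of adult muscle. Six4 is a homeobox protein that works with Eya cofactors through the MEF3 site. Mef2a, Mef2c and Mef2d are MADS-box proteins that bind A/T-rich sites beside E-boxes, and they also act in neurons, lymphocytes and the heart. These 9 genes are the subject here. They were chosen by name, and each was present among the 50226 gene names of the expression table, 19122 of which reached 1 FPKM in at least 1 tissue.

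RNA-Seq had been performed on skeletal muscle, cortex, liver, kidney and 3 fat depots, namely brown fat (BAT), visceral white fat (VAT) and subcutaneous white fat (SCAT). All 7 tissues came from C57BL/6 mice (the study's text gives the substrain C57BL/6N) of genotype wt, aged 36 weeks, on the diet labelled NCD, and none had been treated. Each tissue had 1 library, so no spread between animals can be given, no p-value was computed, and neighbouring tissues in an order of levels cannot be told apart by replicate error. Values are FPKM, fragments scaled to transcript length and library size, which can be compared between genes because length is divided out. Fragment counts were not in the table, and the depth behind each value is unknown. In whole tissue, fewer cells of a type and less RNA per cell cannot be told apart.

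All 9 members lie on autosomes of GRCm38, and they fall into compact and extended genes. Myod1 (chr7:46376474-46379099, plus strand), Myog (chr1:134289989-134292548, plus strand), Myf5 (chr10:107482908-107486134, minus strand) and Myf6 (chr10:107492853-107494737, minus strand) each have 3 exons and 1 annotated transcript, and span 1.89 to 3.23 kb. Myf5 and Myf6 are neighbours, 6.72 kb apart. Pax7 (chr4:139737062-139833528, minus strand) covers 96.5 kb. Six4 (chr12:73099609-73113456, minus strand) covers 13.8 kb. Mef2a (chr7:67231163-67372858, minus strand) and Mef2c (chr13:83504034-83667080, plus strand) span 142 and 163 kb with 12 and 31 annotated transcripts. Mef2d (chr3:88142372-88172086, plus strand) spans 29.7 kb with 7.

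The sites through which these factors act on each other can be looked for in their own promoters. RefSeq start sites on GRCm38.p6 were matched for 7 of the 9 members. The 250 bases before each start were searched on both strands for the E-box CANNTG, a MEF2-like site CTANNNNTA, the MEF3 site TCAGGTTTC and the TATA box TATAAA. Of all 32851 promoters, 66.2% held an E-box, 19.0% a MEF2-like match, 0.387% a MEF3 match and 12.4% a TATAAA. The stretches below are shown because they hold examples of each kind of match, and Mef2d is shown as a window without any. Each is written 5′ to 3′ on the strand of its gene and ends before the annotated transcript. Capitals mark E-box, MEF2-like and MEF3 matches. They are chr1:134289754-134289988 (plus strand) for Myog, chr10:107486135-107486384 (minus strand) for Myf5, chr13:83503784-83504033 (plus strand, the first of 3 starts) for Mef2c and chr3:88142122-88142371 (plus strand) for Mef2d.
Myog: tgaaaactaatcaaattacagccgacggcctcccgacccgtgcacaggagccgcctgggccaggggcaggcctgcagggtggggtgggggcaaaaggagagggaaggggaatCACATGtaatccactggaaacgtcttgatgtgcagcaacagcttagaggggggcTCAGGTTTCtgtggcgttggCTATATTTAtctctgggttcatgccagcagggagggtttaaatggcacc
Myf5: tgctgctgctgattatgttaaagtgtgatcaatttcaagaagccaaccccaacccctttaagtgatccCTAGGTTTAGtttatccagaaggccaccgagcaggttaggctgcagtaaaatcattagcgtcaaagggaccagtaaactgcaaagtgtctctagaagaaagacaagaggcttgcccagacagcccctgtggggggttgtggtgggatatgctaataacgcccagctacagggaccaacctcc
Mef2c: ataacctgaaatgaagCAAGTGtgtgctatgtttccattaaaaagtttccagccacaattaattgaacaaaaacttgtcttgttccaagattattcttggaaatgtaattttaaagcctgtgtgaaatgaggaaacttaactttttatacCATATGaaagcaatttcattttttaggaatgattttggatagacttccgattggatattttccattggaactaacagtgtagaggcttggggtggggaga
Mef2d: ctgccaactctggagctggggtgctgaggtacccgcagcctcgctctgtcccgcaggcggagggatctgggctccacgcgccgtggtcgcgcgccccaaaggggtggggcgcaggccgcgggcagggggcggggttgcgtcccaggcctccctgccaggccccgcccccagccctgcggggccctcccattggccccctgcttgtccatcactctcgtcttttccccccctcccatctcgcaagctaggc
Reading Myog from left to right, the capitals are an E-box, the MEF3 match and the MEF2-like match, and a second E-box lay 12 to 7 bases before the RefSeq start, outside the stretch shown. Myf5 held 2 overlapping MEF2-like matches, 1 on each strand. The first Mef2c start held 2 E-boxes and a TATAAA on the minus strand, in a window of 33.6% GC. Mef2d held none of the motifs, in a window of 73.2% GC with 19 CpG dinucleotides, where all promoters had a median of 52.4% GC and 6 CpG. Six4 was the other member with a MEF3 match, GAAACCTGA on its own strand, which lay inside the transcript annotated by GENCODE. Pax7 and Mef2a held none of the 4 motifs, but the whole Pax7 window lay inside the transcript annotated by GENCODE. A match is a description of letters and says nothing about binding.

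All 9 factors had their highest level in skeletal muscle, which was the highest tissue for 23.3% of the 19122 names. Enrichment in a tissue required a gene to have at least 1 FPKM there and a log2(FPKM + 0.1) that exceeded each other tissue by at least 2, which is 4-fold on that scale. By this rule 7 of the 9 members were enriched in skeletal muscle, against 3.62% of all names and 3.37% of protein-coding names. The exceptions were Mef2a and Mef2c. For 6 of the members, described with their strands further on, the level is that of a locus inferred to lie on the strand opposite to the gene, and 5 of 9 were enriched when such loci were left out. The median difference between muscle and the highest other tissue was 4.01 on the log2 scale over the members and -1.14 over all names. None of the 9 was enriched in cortex, where 8.32% of all names were. The members had been picked as known muscle regulators, so these counts describe them and are no test.

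**Figure D1:**
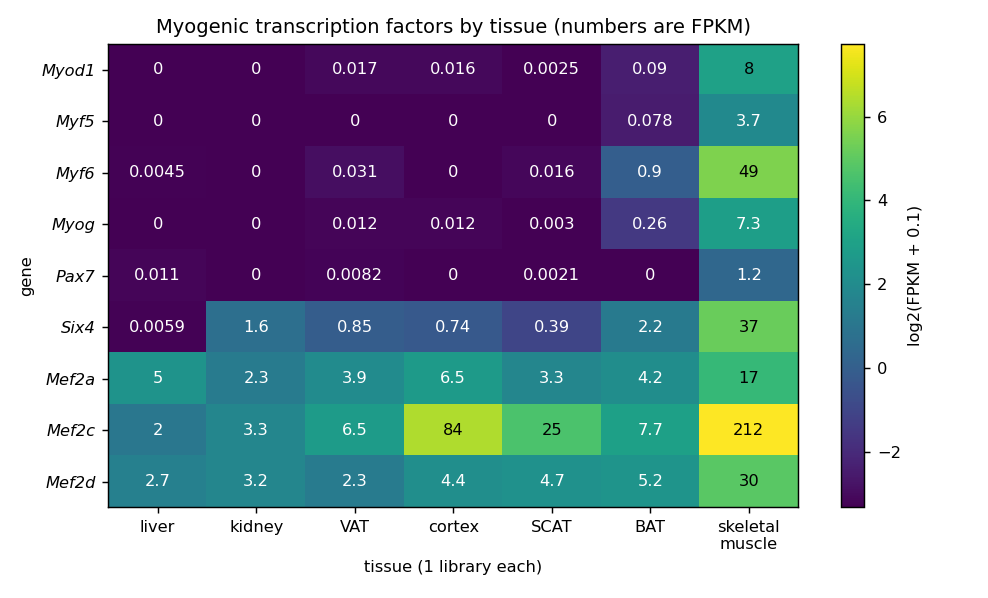
FPKM of the 9 members (rows) in the 7 tissues (columns, 1 library each), with the colour showing log2(FPKM + 0.1). The first 5 rows are below 0.1 FPKM outside muscle except for Myf6 and Myog in BAT, Six4 is low in every other tissue, and the MEF2 rows are above 1 FPKM in all tissues, with Mef2c at 84.3 FPKM in cortex.

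The MyoD family was nearly restricted to muscle. Of its 24 values in other tissues, 2 reached 0.1 FPKM, both in BAT. Within muscle its members differed widely, and Myf6, the form known to prevail in adult fibres, made up 72.0% of their summed 67.8 FPKM. Myod1 contributed 11.8%, Myog 10.8% and Myf5 5.49%. These shares rest on loci inferred to lie on the opposite strand. On the annotated strand Myf6 made up 91.3%, Myog 3.97%, Myod1 3.72% and Myf5 1.04%.

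Myf6 read 48.8 FPKM in muscle and 0.896 in BAT, with 0.0314 in VAT, 0.0159 in SCAT, 0.00453 in liver and 0 in kidney and cortex. Its difference from BAT was 5.62 on the log2 scale. Myod1, the factor that can turn fibroblasts into muscle, read 7.97 FPKM in muscle, 0.0904 in BAT, 0.0168 in VAT, 0.0164 in cortex, 0.00249 in SCAT and 0 in liver and kidney, a difference of 5.41. Muscle thus stood alone for both genes, with BAT second.

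Myog, which drives the last step of differentiation and is known to respond to denervation, read 7.31 FPKM in muscle and 0.262 in BAT, and between 0 and 0.0120 in the other tissues. Its difference from BAT was 4.35. Myf5, an early commitment factor that satellite cells carry, read 3.72 FPKM in muscle and 0.0776 in BAT and 0 in the remaining 5 tissues, a difference of 4.43. Myf5 is known for a history of expression in brown adipocyte precursors. A further Myf5 locus read 0.154 FPKM in BAT and 1.84 in muscle, and all its loci together stayed below Myf6 and Myog in BAT.

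Pax7 was the lowest member in muscle at the loci used. It read 1.17 FPKM in muscle, 0.0115 in liver, 0.00821 in VAT and 0.00209 in SCAT, and was listed at 0 in kidney, cortex and BAT. The difference between muscle and liver was 3.51 on the log2 scale. Its level of 1.17 is close to the minimum of 1 FPKM, and Pax7 was no longer counted as enriched with a minimum of 5 FPKM, with the annotated strand only (0.388 FPKM), with a pseudocount of 1 or after either rescaling of the libraries.

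Six4 was enriched in muscle but had a low level in 5 further tissues. It read 37.2 FPKM in muscle, 2.21 in BAT and 1.55 in kidney, then 0.848 in VAT and 0.742 in cortex, and lastly 0.394 in SCAT and 0.00586 in liver, and the difference from BAT was 4.01. Liver was the lowest tissue, and on the annotated strand it read 0.0119 FPKM beside 0.0262 in SCAT, the next lowest. The bounds given for this locus span 175 kb and also cover Mnat1 and Gm23910, which have rows of their own. The highest Mnat1 row read 8.16 FPKM in muscle and 3.22 in liver, a flatter profile than that of Six4.

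The MEF2 genes were present in all 7 tissues. Mef2c, needed for cardiac and skeletal muscle and for cortical neurons and B cells, was the most abundant member, with 212 FPKM in muscle, 84.3 in cortex, 24.5 in SCAT, 7.74 in BAT, 6.54 in VAT, 3.28 in kidney and 1.97 in liver. In muscle 349 names were higher. The step from cortex to muscle was 1.33 on the log2 scale, below the 4-fold rule, and cortex stood 42.8 times above liver. Muscle, cortex and SCAT were the high tissues.

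Mef2a had the narrowest range over the 7 tissues. It read 16.7 FPKM in muscle, 6.47 in cortex, 4.99 in liver, 4.19 in BAT, 3.88 in VAT, 3.29 in SCAT and 2.34 in kidney, so that muscle exceeded cortex by 1.35 on the log2 scale. The highest of the 6 other tissues was 2.77 times the lowest. The bounds of its locus also cover Lysmd4, 1700112J16Rik, Gm44667 and Gm44668. Mef2d, known for a splice form particular to muscle, read 29.5 FPKM in muscle, 5.21 in BAT, 4.66 in SCAT, 4.36 in cortex, 3.24 in kidney, 2.71 in liver and 2.33 in VAT. Its difference of 2.48 was enough for the rule, and the 6 other tissues lay within 2.24-fold. The difference was 1.78, below the rule, after either rescaling of the libraries. The table is per gene and does not separate splice forms.

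The make-up of the MEF2 family therefore differed between tissues. Mef2c was 88.6% of the summed Mef2a, Mef2c and Mef2d level in cortex, 82.1% in muscle, 75.5% in SCAT and 20.4% in liver, where Mef2a led with 51.6%. In kidney, VAT and BAT Mef2c had 37.0%, 51.3% and 45.2%. Mef2a led in these 3 tissues as well, with 55.1%, 59.4% and 39.7%, when all loci of a name were summed. Mef2b, the remaining gene of the family, had its highest locus in common with Borcs8 and Nr2c2ap (6.88 FPKM in muscle and 20.2 in BAT) and could not be read on its own.

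**Figure D2:**
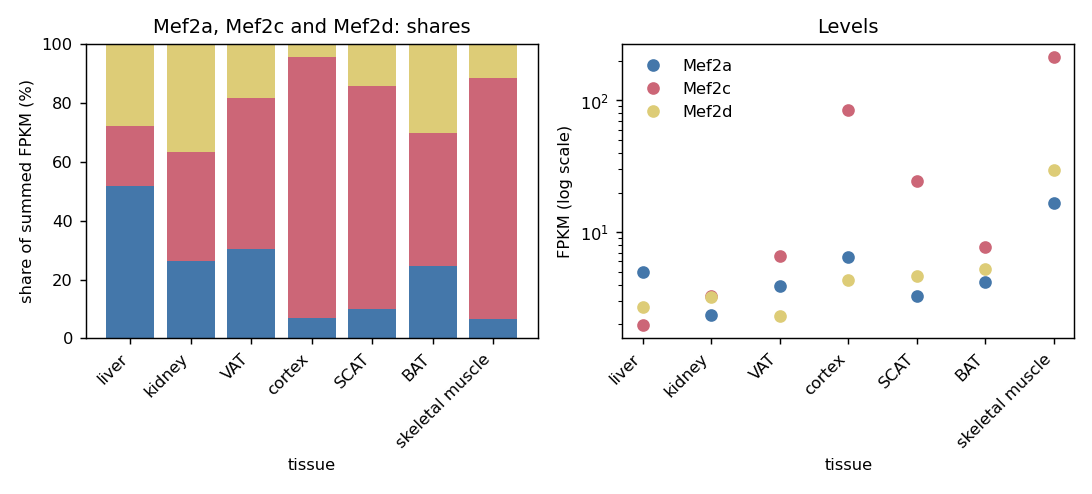
Left, share of Mef2a, Mef2c and Mef2d in their summed FPKM for each tissue (stacked bars, percent). Right, FPKM of each gene on a log axis, 1 point per tissue. Mef2c holds 82.1% in muscle and 88.6% in cortex but 20.4% in liver.

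Cortex and SCAT, where Mef2c was also high, carried markers of cell types known to express it. In cortex, 6 of 8 neuron markers, among them Slc17a7 (100 FPKM) and Snap25 (215 FPKM), were enriched, against 8.32% of all names. Their summed level was 620 FPKM. The same sum was 0.519 to 1.40 FPKM in liver, kidney, VAT, SCAT and BAT, and 33.0 in muscle, of which Camk2a gave 32.7. In SCAT, 7 of 8 B lymphocyte markers were enriched, among them Ms4a1 (50.6 FPKM) and Cd79a (35.6 FPKM), and their sum was 224 FPKM, against 3.78 to 8.07 in the other tissues. Pax5 was listed at 0 in BAT and muscle. The share of all names enriched in SCAT was not computed. Other listed cell types were present as well. Macrophage and microglia markers summed to 60.1 FPKM in cortex and 70.2 in SCAT, and to 18.5 to 59.9 in the other tissues. Endothelial markers summed to 29.3 in cortex and 91.8 in SCAT, and to 82.7 to 576 in the other tissues. The part of any of these cells in the Mef2c levels was not tested.

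BAT was the second tissue for 6 of the 9 members, and for 52.8% of the 693 muscle-enriched names. Expressed as a percentage of the muscle level, the BAT level was 1.13% for Myod1, 1.83% for Myf6, 2.08% for Myf5, 3.59% for Myog and 0% for Pax7. On the annotated strand it was 0% for Myod1 and Myf5, 2.28% for Myf6, 8.36% for Myog and 3.60% for Pax7. With all loci of a name summed, Myf5 came to 3.93% and Pax7 to 0.895%. Genes of the contractile apparatus were measured beside them. Of 10 skeletal muscle fibre markers, 9 were in the table and 8, most of them genes known from fast fibres, could be compared. Their BAT level was 1.02 to 3.13% of muscle, with a median of 1.66%. The 32 mature sarcomere genes that could be compared had a wider range of 0.821 to 36.7%, with a median of 2.10%, and the slow-fibre genes Myh7 (19.3%), Tnni1 (23.6%) and Tnnt1 (36.7%) were at its upper end. Ckm, the muscle creatine kinase, read 166 FPKM in BAT and 8592 in muscle, and the fast light chain Mylpf read 81.9 and 5595. The summed fibre markers were 1043 FPKM in BAT, 97.6 in VAT, 82.2 in SCAT and 5.11 to 16.6 in liver, kidney and cortex. Ckm and Myh4 had no usable value in liver, so the liver sum lacks both. Myh1 was listed at 0 in liver and kidney. Of the 82.2 in SCAT, 70.2 came from the locus that Tnnt3 shares with the leukocyte gene Lsp1. In an alternative chosen after seeing the data, without loci of several names, the sum of the other 7 markers was 648 FPKM in BAT, 55.3 in VAT, 10.5 in SCAT and 3.28 to 14.5 in liver, kidney and cortex, and their BAT level was 1.02 to 2.68% of muscle. The liver sum of these 7 also lacks Ckm. The part of muscle fibres in the BAT values was not tested. The BAT level was 3.65% of muscle for Mef2c, 5.94% for Six4, 17.6% for Mef2d and 25.1% for Mef2a, all above the sarcomere median of 2.10%. Mef2a exceeded every sarcomere gene that could be compared except Tnnt1. In FPKM, Mef2a was lower in BAT (4.19) than in liver (4.99). Over the 693 muscle-enriched names, the median was 3.91%.

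**Figure D3:**
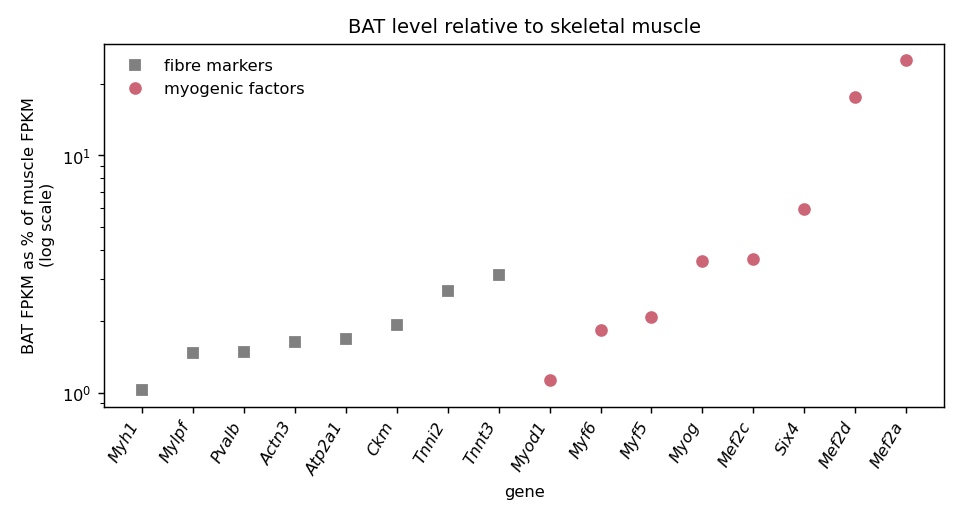
BAT FPKM as a percentage of muscle FPKM (log axis) for 8 fibre markers (squares) and 8 members (circles); Pax7, at 0 in BAT, is not drawn. The fibre markers lie between 1.02 and 3.13% and the members between 1.13 and 25.1%, at the loci used. The wider sarcomere list, not drawn, had a median of 2.10% and reached 36.7%.

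The strand of the loci bears on the levels of 6 members. The table has no strand column, but its loci run through each chromosome in one ascending series per strand, and the strand was inferred from that order. Of the 9 members, 8 had a locus on both strands with the same outer bounds, and the level given above is that of the higher one. For 6 of the 9 members (Myod1, Myf5, Myf6, Myog, Pax7 and Six4) the higher locus lay on the other strand than the annotated gene. The share among 14903 protein-coding names was 20.4%, and among 500 of them enriched in muscle it was 31.8%. The used locus of Mef2a, Mef2c and Mef2d was on the annotated strand.

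On the annotated strand the levels in muscle were lower but muscle remained the highest tissue. Myf6 kept 28.7 FPKM there beside 48.8 on the opposite strand. Myod1 had 1.17 FPKM beside 7.97, and Myog had 1.25 beside 7.31. Myf5 had 0.326 FPKM beside 3.72, and Pax7 had 0.388 beside 1.17, both of them under the 1 FPKM minimum. Six4 had 1.62 FPKM beside 37.2, a ratio of 23.0 that was the highest among the 8 members with loci on both strands. When the opposite strand was left out, 5 of 9 members were enriched in muscle (Myod1, Myf6, Myog, Six4 and Mef2d). The median difference was then 2.48 on the log2 scale, and 3.39% of all names were enriched.

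**Figure D4:**
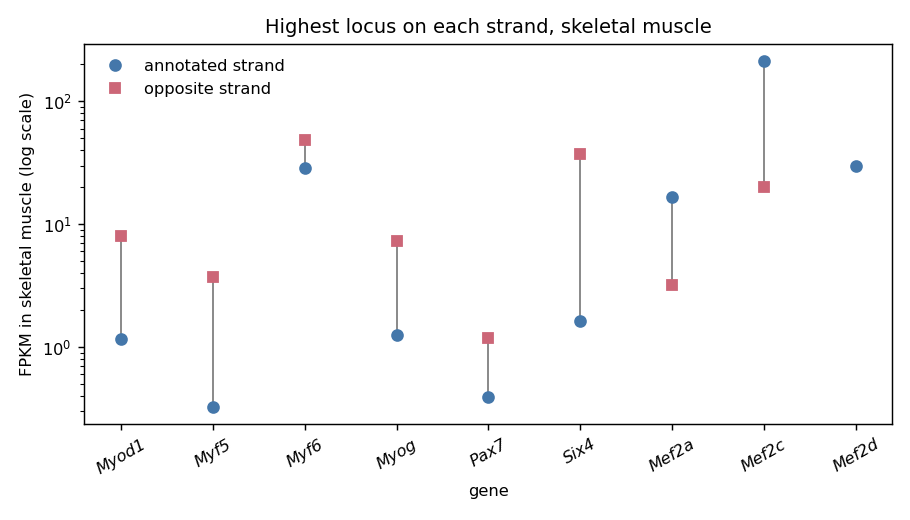
FPKM in skeletal muscle (log axis) of the highest locus on the annotated strand (circles) and on the opposite strand (squares) for each member. Squares lie above circles for Myod1, Myf5, Myf6, Myog, Pax7 and Six4, below them for Mef2a and Mef2c, and Mef2d has no opposite locus.

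In a list of Pax7, Six4 and genes of the Pax, Eya and Six4-related families, 5 of 9 were enriched in muscle, against 3.62% of all names, with a median difference of 3.07 over the 7 that reached 1 FPKM. Besides Pax7 and Six4 these were Eya4 (25.2 FPKM in muscle), Eya1 (17.3) and Pax3 (1.26). Eya1 and Eya4 are cofactors through which factors such as Six4 activate genes. Eya3 was even across tissues, with 8.76 FPKM in muscle and 10.1 in liver.

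Of the 3 E proteins, with which the MyoD family dimerises, 0 were enriched in muscle, where 3.62% of all names were. Their median difference was -0.94, near the -1.14 of all names. In muscle Tcf12 read 17.1 FPKM, Tcf4 15.9 and Tcf3 4.66. Tcf4 was highest in cortex (45.5 FPKM), Tcf12 in BAT (26.4) and Tcf3 in SCAT (9.03). The other tissues thus held E proteins with hardly any MyoD family RNA.

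Of 14 inhibitors of basic helix-loop-helix factors, 0 were enriched in muscle, which is near the 3.62% of all names, and the median difference of the 12 measured was -1.60. Id2, which sequesters E proteins, read 1.06 FPKM in muscle and 44.7 in both liver and kidney. Id1 read 3.12 in muscle and 17.1 in BAT, and Id3 3.82 in muscle and 13.2 in kidney. Going the other way, Bhlhe41 (15.1 FPKM), Bhlhe40 (11.8) and Zeb1 (10.9) were highest in muscle without passing the rule. Of 5 repressors of MEF2, 1 was enriched in muscle, against 3.62% of all names. This was Hdac4, a class IIa histone deacetylase, with 25.2 FPKM in muscle and 5.81 in cortex. Hdac5 read 28.4 FPKM in muscle and 18.5 in cortex, and Hdac9 was highest in cortex (4.34, against 1.53 in muscle).

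Of 16 coactivators and TEAD or SRF factors, 3 were enriched in muscle, against 3.62% of all names. The median difference of the 15 measured was 0.24, against -1.14 over all names. Vgll2, a TEAD cofactor of muscle, read 13.0 FPKM in muscle and 0.142 in BAT, Tead4 5.83 and 0.979, and Mamstr, a MEF2 coactivator, 3.69 in muscle and 0.203 in VAT. Smarcd3, the chromatin remodeller subunit BAF60C that works with Myod1, had the highest level of the list in muscle at 105 FPKM, 1.75 above VAT on the log2 scale. Tead1 read 24.8 FPKM in muscle.

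Markers of satellite cells were mixed. Of 12 genes, 11 were in the table and 3 were enriched in muscle, against 3.62% of all names: Myf5, Pax7 and Chodl. Calcr, a marker of quiescent satellite cells, read 0.873 FPKM in muscle and 0.516 in kidney. Itga7 read 19.7 FPKM in muscle and 7.90 in VAT, while Sdc4 was highest in liver (112, against 8.39 in muscle). The list of myoblast fusion genes held 12 names, with Mymk and Mymx each counted under an older and a newer name. Of these names, 9 were in the table and 0 were enriched in muscle, again near the 3.62% of all names. The fusogen gene Mymk, listed under its older name Tmem8c, read 0.0461 FPKM in muscle, and Mymx, listed as Gm7325, read 0.0472.

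Genes of the neuromuscular junction, some of which the MyoD family is known to activate, were enriched in muscle for 4 of 11, against 3.62% of all names. Musk, the kinase that clusters the receptors, read 38.6 FPKM in muscle and 0.449 in BAT. Rapsn read 7.99 FPKM and Chrna1 7.53 in muscle, and Chrna1 had 1.01 in BAT. Chrne, the adult receptor subunit, read 2.55 FPKM in muscle, whereas its fetal counterpart Chrng read 0.0532. Of 12 developmental or denervation-linked genes, 5 were enriched in muscle, against the same 3.62%. Mstn (myostatin, 56.6 FPKM) and Actc1 (47.9) were among them, and the embryonic heavy chain Myh3 read 0.870 FPKM.

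The mature sarcomere and myofibre genes were enriched in muscle almost throughout. Of 35 genes, 34 were in the table and 31 had a value in all tissues. Of these 31, 30 were enriched in muscle, against 3.62% of all names, with a median difference of 5.44. The MyoD family median was 4.92. Tnnt1, a slow-fibre troponin, was the exception with 102 FPKM in muscle and 37.3 in BAT. Ttn and Myh4, whose locus also carries Myh8, had no usable value in muscle, and Ckm had none in liver, so these 3 were not counted.

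**Figure D5:**
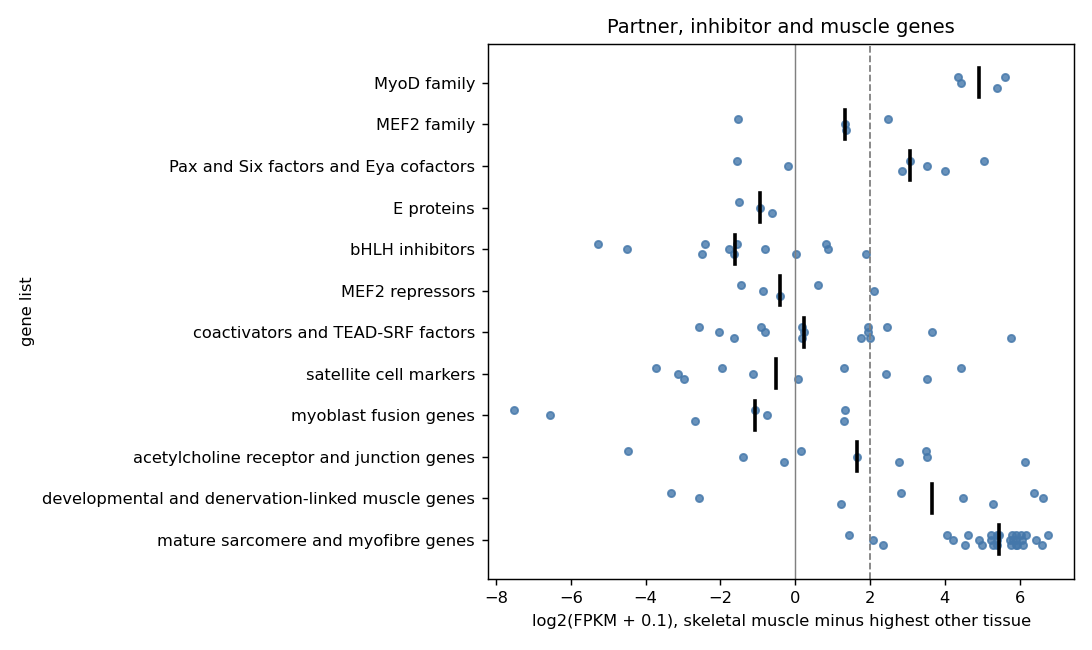
Difference in log2(FPKM + 0.1) between skeletal muscle and the highest other tissue for each gene of 12 lists that reached 1 FPKM (points; black bars are list medians; the dashed line is the 4-fold rule). By list median, MyoD family and sarcomere genes lie furthest to the right, at 4.92 and 5.44. Single genes of other lists, such as Mstn at 6.63, lie beyond every MyoD gene. E proteins and bHLH inhibitors mostly lie below 0.

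Over the 7 tissues, the MyoD genes and Pax7 had nearly the same profile. Pearson's r of log2(FPKM + 0.1) was 0.973 to 0.999 within the MyoD family and 0.928 to 0.987 between it and Pax7. These values rest on muscle standing apart from 6 tissues near 0 and are a description. Mef2c was least like the MyoD genes (r from 0.622 to 0.691). The 3 names most like each member were found in the same way. For Myod1 they were 2310016D03Rik, Vgll2 and 5330439A09Rik, and for Myf5 Gm22346 with the same 2 non-coding genes. Gm17197, Gm15469 and Gm8424 were most like Myf6, and 2310016D23Rik, 1700119I11Rik and Kbtbd12 most like Myog. For Pax7 they were AC153484.1, AC159622.3 and Gm1821, taken in order of name among those tied at 0 in every other tissue. All of these had r above 0.99.

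The closest matches of the other members had lower r. Six4 was most like Cryab (r = 0.997), a small heat shock protein that read 420 FPKM in muscle, 13.9 in BAT, 11.4 in kidney and 0.476 in liver. Fundc2 and 5031434C07Rik, which shares its locus with Lmcd1, followed at 0.99 each. Mef2a was most like Cfap43, Ythdf1 and the clock gene Per1 (r from 0.98 to 0.99). Mef2c was most like Pot1a, Pld5 and E130307A14Rik (0.98 each), and Mef2d like Gpatch4, Perm1 and Chrne (0.98 each).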

How the data were processed

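RNA of 7 tissues had been depleted of rRNA, made into directional libraries and sequenced as paired ends. Per the study's methods and the submitters' processing notes, adapters were removed with flexbar, rRNA reads with Bowtie2 (version 2.2.9), and reads were aligned to GRCm38 with STAR (version 2.6.0c). Transcripts were assembled with Cufflinks (version 2.2.1), merged with cuffmerge and compared with cuffdiff. The deposited table gives the FPKM that the authors computed for 94339 loci in 21 comparisons. Its fold changes, p-values and test calls were not used. cuffdiff's library type and scaling are not given in the sources used here.

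Each tissue's FPKM was taken once. The 151 loci with status FAIL were left out, and zeros with status LOWDATA were treated as missing, which left 66 names and none of the members with a gap. Of several loci of a name, the one with the highest FPKM was used. A pseudocount of 0.1 was added before log2, which understates differences of low genes. Coordinates come from the GENCODE annotation of GRCm38, and promoters from RefSeq. All 9 members are named. Lists are given as counts with up to 6 genes, those highest in muscle and those that depart from the majority, and more of the sarcomere list are named beside the BAT values and for their missing values, and the 3 most alike names are given per member. 1 gene of the lists was left out and is not reported here. Members and lists were chosen with earlier results of these data known. The rule was tried on simulated data with a set noise, which checks the calculation and says nothing about the noise of single libraries. Alternatives covered pseudocount, scaling, minimum, fold, loci, statuses, strand and the adipose libraries. Calculations used Python (version 3.11.15) with pandas (version 2.3.3).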

Additional observations from a re-analysis of the deposited data

How the results depend on the processing

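The counts of enriched members, their median difference and the difference of each member were recomputed under 15 alternatives. With 1 library per tissue there were no pairs and no replicate to leave out. Muscle stayed the highest tissue for all 9 members under every alternative, with differences from 0.76 to 8.87 on the log2 scale. Of 135 recomputed differences of single members, 116 moved by less than 1.5-fold, 7 were higher, 12 were lower and 0 changed sign. The alternatives of minimum FPKM and of fold cannot alter a difference. Those of statuses and of loci with several names left every member's difference unchanged. These unchanged values are among the 116 and are no sign of stability. The count of enriched members stayed between 5 and 9. It was 5 with the annotated strand only (without Myf5 and Pax7), with a minimum of 5 FPKM (without Myf5 and Pax7) and with either other scaling (without Pax7 and Mef2d), 6 with an 8-fold rule (without Mef2d) or a pseudocount of 1 (without Pax7), and 9 with a 2-fold rule. The share of all names enriched in muscle was 3.39% with the annotated strand only, 2.92% with the minimum of 5 FPKM, 2.76% and 2.87% with the scalings, 2.17% with the 8-fold rule, 2.73% with the pseudocount of 1 and 7.74% with the 2-fold rule. The median difference of 4.01 became 4.75 with a pseudocount of 0.01, 2.30 with a pseudocount of 1 and 2.48 with the annotated strand only. The first 2 follow from the near-zero levels outside muscle, and the cause of the strand difference was not tested. Scaling to the median ratio shifted the muscle library by -0.38 and SCAT by 0.49 on the log2 scale, and brought Mef2d to 1.78.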
